A study of Mus musculus with 2 samples.

Results

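Transcription factors that build and hold the identity of islet endocrine cells were followed in islets of mice labelled as lacking Zbtb20 in beta cells, against islets of littermate controls. The members were the probe sets whose platform annotation names a single gene among 38 listed factors. Such probe sets were found for 35 of the 38 genes, 98 probe sets in all, out of 18193 genes and 34945 probe sets with 1 gene on the array. Rfx6 and Fev had none in the annotation used and Etv1 had only probe sets annotated to several genes, so these 3 factors were not analysed here. The genes were divided by the stage at which they are best known to act: 21 of the 35 are factors of adult islet cells and 14 are factors of the endocrine progenitor and its early descendants. Some, such as Insm1, Neurod1, Nkx2-2 and Prox1, act at both stages.

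The knockout-labelled group was 1 array of islets from mice with a beta cell-specific ZBTB20 knockout, and the wildtype group was 1 array of islets from littermate controls. The mice of both groups were aged 2 to 3 months, their strain was labelled as mixed background, and their islets were cultured overnight after hand-picking. The Cre driver, the deleted exons and the number of animals behind each array are not given in the sources used here. ZBTB20 is a zinc finger transcription factor, and the study asked which genes depend on it in beta cells.

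With 1 array per group there were no replicates, so no ratio below carries an SD or a p-value and each compares 2 RNA preparations. All ratios are knockout-labelled over wildtype. Signals are linear MAS5 intensities in arbitrary units, in which one probe set's height cannot be set against another's. The median of each array, 21.7 in the knockout-labelled and 21.6 in the wildtype array, served as a floor, since detection calls were not used here. Where only 1 of the arrays was above it the ratio is a bound. Islet identity was plain on both arrays: Ins2 (insulin) had a signal of 7786 in knockout-labelled and 9194 in wildtype islets, and Gcg (glucagon) 10292 in knockout-labelled and 11215 in wildtype islets. Zbtb20 itself gave no check of the label, with 5 of its 9 probe sets lower and 4 higher and a median log2 ratio of -0.062. Which probe sets lie in the deleted part is unknown, and other islet cells keep the gene.

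Islet endocrine cells arise from pancreatic epithelial progenitors that briefly switch on Neurog3, a basic helix-loop-helix factor held back by Notch signalling through Hes1. Neurog3 turns on a relay of further factors, among them Neurod1, Insm1, Pax4 and Myt1, and the descendants then settle into beta, alpha, delta or PP cells. Adult beta cells go on needing Pdx1, Nkx6-1, Nkx2-2, Pax6, Isl1, Foxa2 and others to keep the insulin gene and the secretory apparatus active and to keep programmes of other islet cells silent. Loss of these factors with return of progenitor factors is known as beta cell dedifferentiation.

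The factors as a group stood close to equal on the 2 arrays. Of the 35 genes, 32 were above the floor on at least 1 array and 29 on both. With the 3 factors above it on 1 array (Tcf7l2, Sox11 and Bcl11a) counted at their bounds, only Myt1 of the 32 was at least 2-fold higher and none was at least 2-fold lower, where 1.82% of all 11802 genes measured in the same way were 2-fold higher and 1.44% 2-fold lower. At 1.5-fold there were 1 higher and 3 lower factors (St18, Foxa3 and Hes1), where the shares of all genes were 6.91% and 6.21%. Among the 29 above the floor on both arrays 17 lay within 1.2-fold, a share of 58.6%, against 60.7% of 10450 such genes, of which 39.3% were past that size in either direction. The median distance from 0 on the log2 scale was 0.21 for these factors and 0.20 for all such genes.

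Adult identity factors had a median of -0.044 on the log2 scale over 19 measured genes, with 8 above 0 and 11 below. Progenitor factors had a median of -0.15 over 13 measured genes, with 5 above 0 and 8 below. The median of the adult identity factors was 0.11 above that of the progenitor factors on the log2 scale. Different probe sets of 1 gene had a median SD of 0.21 over 4719 genes, a spread that leaves out all variation between animals. That is a spread of single values, not of a median, and the error of the difference between the classes could not be estimated. Over all genes 49.9% were above 0 and 49.8% below, and the median was 0.

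**Figure D1:**
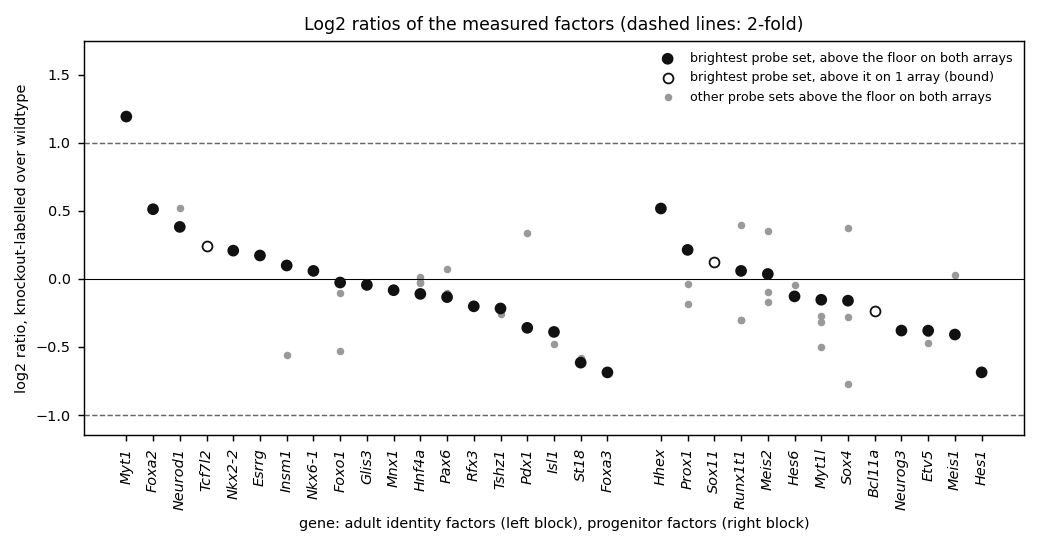
Log2 ratios (knockout-labelled over wildtype, y axis) of the 32 measured factors (x axis), with the 19 adult identity factors in the left block and the 13 progenitor factors in the right block, each sorted by ratio. Large points are the brightest probe set, open where only 1 array was above the floor, small grey points are other probe sets above the floor on both arrays, and Myt1 alone lies past the dashed 2-fold lines.

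Counted by probe set rather than by gene, the picture leaned to the lower side. Of the 98 probe sets 60 were above the floor on both arrays, and 19 of these were higher and 41 lower in knockout-labelled islets. The share of higher probe sets was 31.7%, against 50.3% of 18275 such probe sets over all genes. Their median log2 ratio was -0.12, and the values ran from -0.77 for a Sox4 probe set to 1.19 for Myt1. Probe sets of 1 gene share its RNA, so genes with many of them, such as Sox4, Myt1l, Meis2 and Hnf4a, weigh more in this count.

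Among the 17 factors with at least 2 probe sets above the floor on both arrays, 8 had all of them on the same side of 0, or 47.1%, against 48.7% of 4719 genes overall. Neurod1 alone of the 8 was on the higher side. The other 7, all on the lower side, were Isl1, St18, Tshz1, Foxo1, Hes6, Etv5 and Myt1l. The remaining 9, Pdx1, Pax6, Insm1, Hnf4a, Sox4, Prox1, Meis1, Meis2 and Runx1t1, had probe sets on both sides. How the 2300 genes with 1 direction overall split into higher and lower was not counted, so the split of 1 and 7 has no share beside it. Foxo1 and Hes6 each had a probe set near 0, at log2 ratios of -0.027 and -0.047.

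Promoters are shown for the factor past 2-fold, Myt1, and for a higher and a lower factor whose probe sets agreed, Neurod1 and Isl1. RefSeq promoter windows (GRCm38.p6) run from 250 bases before to 50 bases after an annotated transcription start, and 31 of the 38 genes had at least 1 window. Capitals mark the E-box core CANNTG, which reads the same on both strands and is bound by helix-loop-helix factors such as NEUROD1, and the forkhead motif TGTTTAC or its reverse complement GTAAACA, bound by FOXA and FOXO proteins. The motifs did not overlap in these windows. The sequences are 5′ to 3′ on the strand of the gene, and Myt1 has 3 annotated starts, all on the plus strand of chromosome 2.
Myt1 start 1, chr2:181763082-181763381, plus strand: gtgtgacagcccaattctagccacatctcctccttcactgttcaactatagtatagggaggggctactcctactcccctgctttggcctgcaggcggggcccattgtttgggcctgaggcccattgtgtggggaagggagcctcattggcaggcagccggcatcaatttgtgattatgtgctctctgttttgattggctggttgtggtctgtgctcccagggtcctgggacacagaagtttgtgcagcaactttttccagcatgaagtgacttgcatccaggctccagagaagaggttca
Myt1 start 2, chr2:181766779-181767078, plus strand: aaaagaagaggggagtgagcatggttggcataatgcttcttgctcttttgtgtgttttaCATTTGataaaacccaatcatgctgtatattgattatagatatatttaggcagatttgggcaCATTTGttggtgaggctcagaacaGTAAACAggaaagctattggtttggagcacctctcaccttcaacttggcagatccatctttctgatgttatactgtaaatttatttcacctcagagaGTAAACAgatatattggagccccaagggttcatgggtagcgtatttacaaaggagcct
Myt1 start 3, chr2:181796057-181796356, plus strand: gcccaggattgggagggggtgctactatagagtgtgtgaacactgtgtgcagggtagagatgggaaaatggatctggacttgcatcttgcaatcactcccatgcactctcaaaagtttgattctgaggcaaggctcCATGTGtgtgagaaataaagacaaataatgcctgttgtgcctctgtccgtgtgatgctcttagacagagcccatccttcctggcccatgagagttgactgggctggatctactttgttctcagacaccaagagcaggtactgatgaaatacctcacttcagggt
Neurod1, chr2:79456587-79456886, minus strand: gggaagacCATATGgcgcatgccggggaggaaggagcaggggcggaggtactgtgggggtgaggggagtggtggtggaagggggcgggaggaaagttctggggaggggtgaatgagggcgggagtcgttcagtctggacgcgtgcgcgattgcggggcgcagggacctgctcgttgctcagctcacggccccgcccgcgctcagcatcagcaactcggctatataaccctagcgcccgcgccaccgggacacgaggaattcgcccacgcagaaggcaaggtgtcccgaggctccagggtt
Isl1, chr13:116309639-116309938, minus strand: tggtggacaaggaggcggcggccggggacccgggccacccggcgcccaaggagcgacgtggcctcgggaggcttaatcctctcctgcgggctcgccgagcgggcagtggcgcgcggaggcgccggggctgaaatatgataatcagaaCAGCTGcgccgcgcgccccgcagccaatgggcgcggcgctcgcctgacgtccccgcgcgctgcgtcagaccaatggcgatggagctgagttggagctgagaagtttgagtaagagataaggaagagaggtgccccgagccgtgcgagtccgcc

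The second Myt1 start held 2 E-box cores and 2 forkhead motifs, the third held 1 E-box core, and the first held neither. Neurod1 and Isl1 had 1 E-box core each and no forkhead motif. Of 32851 windows of the same length over all genes, 72.3% held an E-box core and 3.65% a forkhead motif. Of the 49 windows of the listed factors, 32 (65.3%) held an E-box core and 4 (8.16%) a forkhead motif, too few for a comparison of shares. Those 4 windows belonged to 4 of the 31 genes with windows. These matches are letters in a window, not sites shown to be bound.

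The homeodomain factors that define the pancreas and the beta cell were within 1.5-fold in every brightest probe set. Pdx1, the master regulator of the pancreas and an activator of the insulin gene, had a signal of 348 in knockout-labelled and 446 in wildtype islets in its brighter probe set, 1.28-fold lower. Its other probe set, at 86.9 in knockout-labelled and 68.8 in wildtype islets, was on the higher side, with a log2 ratio of 0.34. The pair of probe sets therefore gave Pdx1 no single direction. Nkx6-1, which keeps beta cells from taking on alpha cell traits, was at 249.5 in knockout-labelled and 239.5 in wildtype islets, a log2 ratio of 0.059. Nkx2-2, needed to form beta cells and to hold their identity, was at 559 in knockout-labelled and 484 in wildtype islets (log2 ratio 0.21). Mnx1, a beta cell factor that suppresses delta cell fate, was at 93.0 in knockout-labelled and 98.5 in wildtype islets (log2 ratio -0.083).

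Pax6, which activates hormone genes in all islet cell types, was at 1766.5 in knockout-labelled and 1938 in wildtype islets in its brightest probe set. Its 3 probe sets above the floor on both arrays had log2 ratios of -0.13, -0.10 and 0.074, near 0 on both sides. Isl1, a LIM homeodomain factor of all mature endocrine cells, stood apart from the other homeodomain factors in having both probe sets lower by a like amount. The brighter gave 1120 in knockout-labelled and 1467 in wildtype islets, 1.31-fold lower. The other gave 436 in knockout-labelled and 606 in wildtype islets, a log2 ratio of -0.47. The ratio of the brighter one lay inside the spread of genes of like signal: for 895 genes at mean signals of 1000 or more, the central 95% lay between -0.68 and 0.42.

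**Figure D2:**
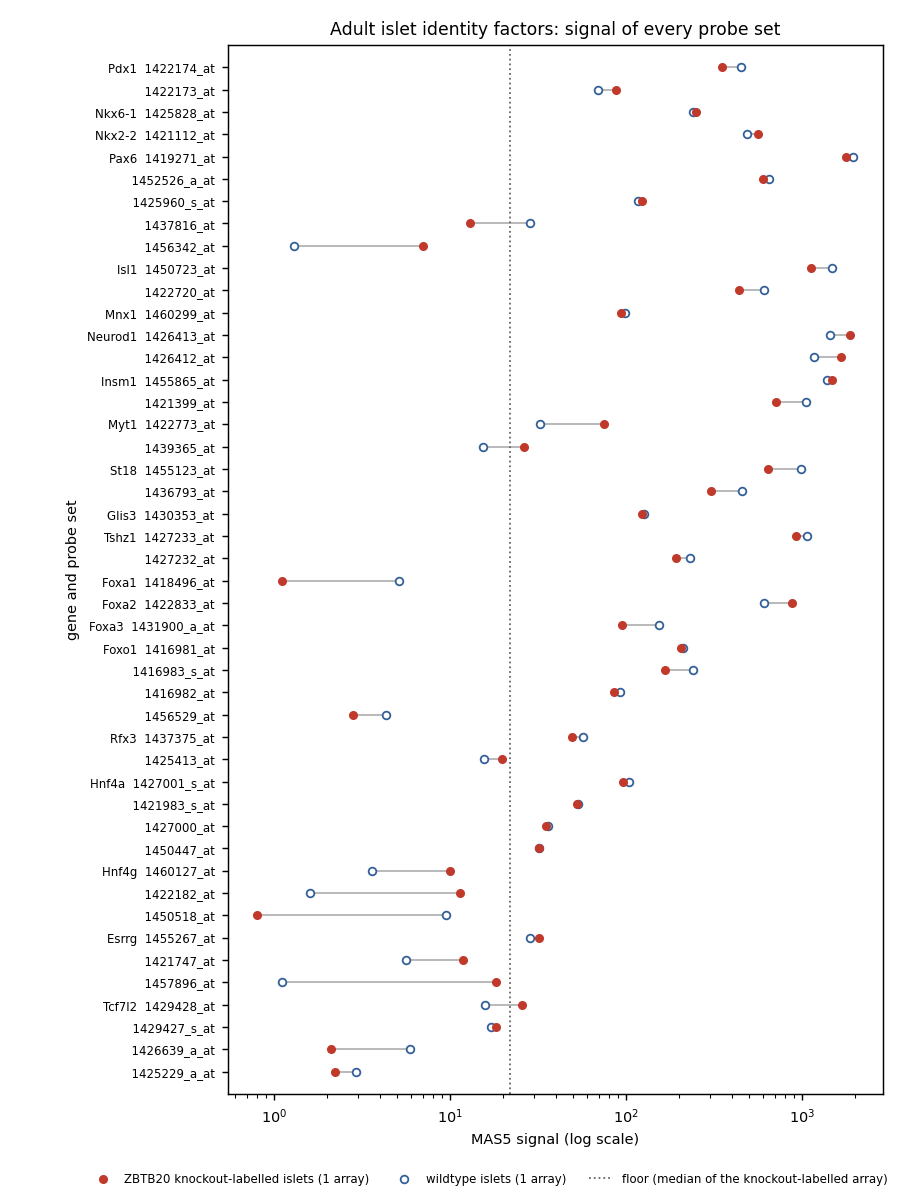
MAS5 signals (x axis, log scale) of all 46 probe sets of the 21 adult identity factors found (y axis), filled for the knockout-labelled array and open for the wildtype array, with a grey line joining the 2. The dotted line is the floor of 21.7, and the long lines lie almost all to the left of it, where signals such as those of Hnf4g and Foxa1 are near background.

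Foxa2 and Neurod1 had the highest ratios after Myt1 among the 18 adult factors above the floor on both arrays, which leaves out Tcf7l2, at a log2 ratio of 0.69 with the floor at the 30th percentile. Neurod1, a helix-loop-helix activator of the insulin gene, was at 1863 in knockout-labelled and 1429.5 in wildtype islets in its brightest probe set, 1.30-fold higher. The second Neurod1 probe set gave 1665 in knockout-labelled and 1159.5 in wildtype islets, a log2 ratio of 0.52. Both Neurod1 probe sets were thus on the higher side. For genes at mean signals of 1000 or more the central 95% ended at 0.42. The brightest Neurod1 probe set, at 0.38, lay inside that limit and the second lay past it. Foxa2, a forkhead pioneer factor that activates Pdx1 and other endoderm genes, was at 869 in knockout-labelled and 609 in wildtype islets, 1.43-fold higher in its single probe set. For 2088 genes at mean signals between 300 and 1000 the central 95% of log2 ratios lay between -0.58 and 0.64, and the Foxa2 value of 0.51 was inside it.

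The other forkhead factors did not follow Foxa2. Foxa3, a relative better known from liver and gut, was at 94.8 in knockout-labelled and 153 in wildtype islets, 1.61-fold lower in 1 probe set. Foxa1 was under the floor on both arrays, at 1.1 in knockout-labelled and 5.1 in wildtype islets. Foxo1, a stress- and insulin-responsive factor that guards beta cell identity, was at 205 in knockout-labelled and 209 in wildtype islets in its brightest probe set. Its 3 measured probe sets were all below 0, from -0.53 to -0.027, so the size of the Foxo1 ratio depended on the probe set.

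The Myt family of zinc finger factors, Myt1, St18 and Myt1l, held the highest and the lowest ratio among the 6 zinc finger members above the floor on both arrays, which leaves out Bcl11a. Myt1, which is turned on by NEUROG3 and promotes endocrine differentiation, was at 74.3 in knockout-labelled and 32.5 in wildtype islets, 2.29-fold higher. The other Myt1 probe set was at 26.3 in knockout-labelled and 15.4 in wildtype islets, which put it above the floor on the knockout-labelled array only and bounds its ratio at no less than 1.22-fold. Both probe sets were thus higher, and both were weak. For 3951 genes at mean signals under 100 the central 95% lay between -0.95 and 0.94, and Myt1, at 1.19, was the single factor of the 11 in that range outside it.

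St18, also called Myt3 and active in beta cell survival and migration, went the other way. Its brighter probe set gave 640.2 in knockout-labelled and 981 in wildtype islets, 1.53-fold lower. The other gave 303 in knockout-labelled and 453 in wildtype islets, a log2 ratio of -0.58. The probe sets agreed within an SD of 0.024, and St18, at -0.62, was the single factor of 7 with mean signals of 300 to 1000 outside the central 95% of genes. Over all signal ranges 2 of 29 factors, Myt1 and St18, lay outside in their brightest probe sets. By construction 2.5% of genes lie beyond each end. Myt1l, a relative best known from neurons, was at 109.9 in knockout-labelled and 122 in wildtype islets. All 4 measured Myt1l probe sets were below 0, from -0.50 to -0.15.

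**Figure D3:**
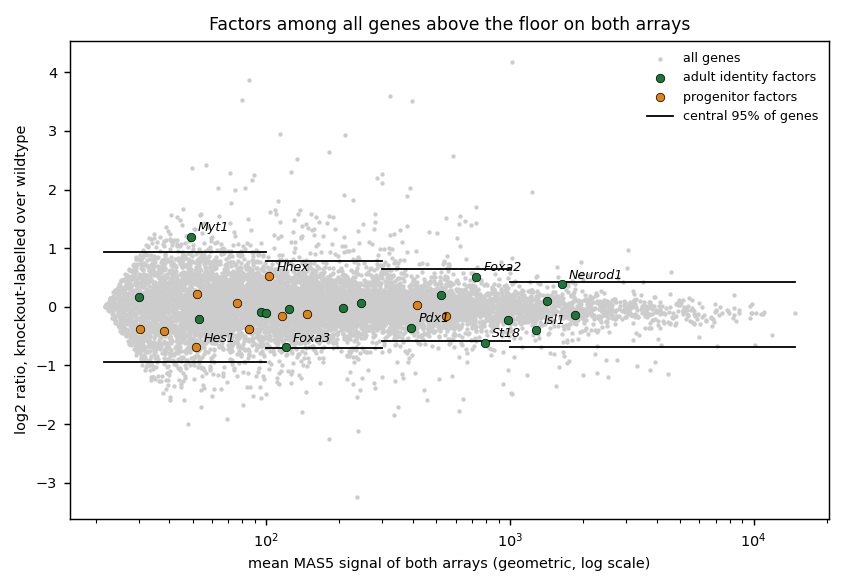
Log2 ratio (y axis) against mean signal (x axis, log scale) for the 10450 genes above the floor on both arrays in grey, with adult identity factors in green and progenitor factors in orange. Black lines give the central 95% of genes in 4 bands of signal, with 2.5% of genes beyond each line by construction. Myt1 above and St18 below are the 2 of 29 factors outside them, each gene shown by its brightest probe set.

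The other zinc finger factors of the adult class were near equal. Insm1, needed for endocrine differentiation and still on in mature islets, was at 1469 in knockout-labelled and 1372 in wildtype islets, a log2 ratio of 0.099. Its second probe set gave 711 in knockout-labelled and 1047 in wildtype islets, a log2 ratio of -0.56, and the SD of 0.46 between them leaves Insm1 without a direction. Glis3, an activator of the insulin gene, was at 123 in knockout-labelled and 127 in wildtype islets (log2 ratio -0.044). Tshz1, a factor downstream of PDX1, was at 914.5 in knockout-labelled and 1063 in wildtype islets in its brighter probe set, with log2 ratios of -0.22 and -0.26 in the pair.

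The measured nuclear receptors and the RFX factor lay within 1.2-fold in their brightest probe sets, and Tcf7l2 had only a bound. Hnf4a, a regulator of glucose-responsive secretion mutated in a familial form of diabetes, was at 95.9 in knockout-labelled and 103.5 in wildtype islets, and its 4 probe sets ran from -0.11 to 0.014. Esrrg, which raises oxidative metabolism as beta cells mature, was at 32.0 in knockout-labelled and 28.4 in wildtype islets (log2 ratio 0.17). Rfx3, a factor of ciliated endocrine cells, was at 49.4 in knockout-labelled and 56.8 in wildtype islets (log2 ratio -0.20). The Hnf4a probe sets agreed more closely than those of most genes, with an SD of 0.052. All 3 probe sets of Hnf4g were under the floor on both arrays. Tcf7l2, a Wnt effector tied to risk of type 2 diabetes in people, was above the floor on the knockout-labelled array only, at 25.5 in knockout-labelled and 15.8 in wildtype islets, at least 1.18-fold higher.

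The factors that start the endocrine programme were weak on both arrays, as the plot of progenitor signals shows. Neurog3 was at 26.6 in knockout-labelled and 34.6 in wildtype islets, 1.30-fold lower and close to the floor on both, with its other probe set under the floor on both. Pax4, which directs precursors to the beta and delta lineages, was at 1.0 in knockout-labelled and 1.1 in wildtype islets, under the floor. Sox11 was above the floor on the knockout-labelled array only, in 1 of 6 probe sets, at 23.6 in knockout-labelled and 12.6 in wildtype islets. Signals this low do not give a usable ratio, and a Neurog3 signal next to the array median can still be background.

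Sox4, an HMG box factor that acts with Neurog3 in precursors and persists in adult beta cells, was measured by 8 probe sets. The brightest gave 518 in knockout-labelled and 578 in wildtype islets, a log2 ratio of -0.16. Of the 6 above the floor on at least 1 array 5 were lower and 1 higher, 2 of the lower ones above it on the wildtype array only. The lowest of the 4 above it on both was at 85.1 in knockout-labelled and 145 in wildtype islets, a log2 ratio of -0.77, and the highest at 123 in knockout-labelled and 94.8 in wildtype islets, a log2 ratio of 0.37. The 4 thus lay on both sides of 0 and gave Sox4 no single direction.

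**Figure D4:**
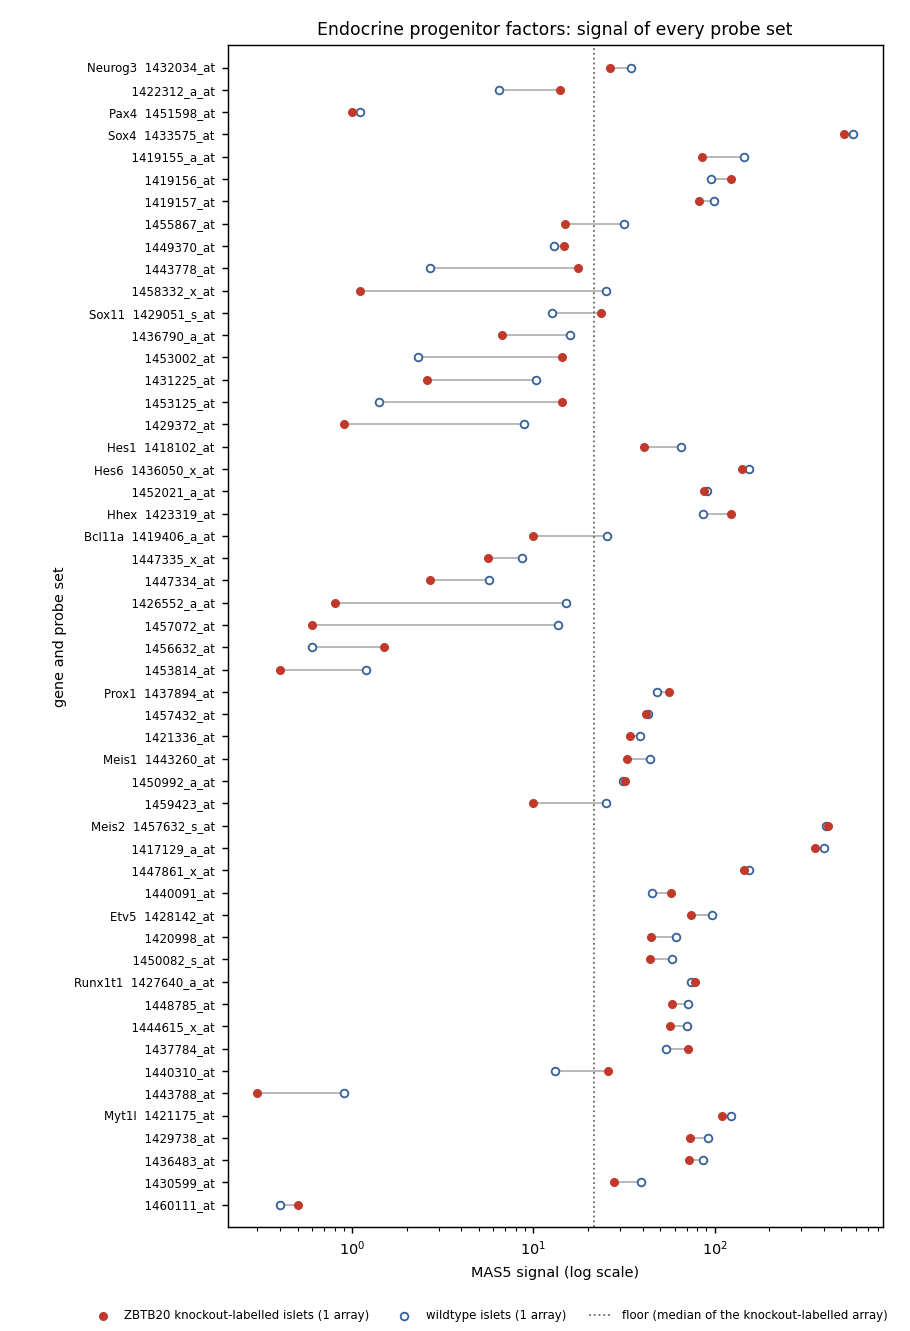
MAS5 signals (x axis, log scale) of all 52 probe sets of the 14 progenitor factors found (y axis), filled for the knockout-labelled array and open for the wildtype array, with the floor of 21.7 dotted. A total of 29 probe sets lie above the floor on both arrays and 17 lie under it on both, among them the single probe set of Pax4 and 5 of the 6 of Sox11.

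Of the Hairy and Enhancer of split factors, Hes1 had the larger ratio and Hes6 lay within 1.2-fold. Hes1, the Notch effector that represses Neurog3, was at 40.7 in knockout-labelled and 65.5 in wildtype islets, 1.61-fold lower in its 1 probe set. Hes6, which counteracts HES1 and is switched on by NEUROG3, was at 141 in knockout-labelled and 154 in wildtype islets (log2 ratio -0.13), with -0.047 in its other probe set. Hes1 is expressed in duct and other non-endocrine cells of the pancreas as well. Of 8 measured duct markers, 5 were below 0 and 3 above, and their median was -0.27 on the log2 scale. The summed signal of the 12 duct markers found was 11878.5 in knockout-labelled and 12145 in wildtype islets, and the duct factor Sox9, at 2.1 in knockout-labelled and 19.5 in wildtype islets, was under the floor on both. The brightest markers weigh most in that sum, such as Krt18 at 2903 in knockout-labelled and 3509 in wildtype islets. The sum is therefore no measure of duct cell content. Cftr, Muc1 and Onecut1 of that list were also under the floor on both arrays. Car2 was the lowest of the 8, at 11.2 in knockout-labelled and 57.8 in wildtype islets, at least 2.66-fold lower. Cldn7 was the highest, at a log2 ratio of 0.67. What part duct cells had in the Hes1 ratio was not tested. In whole islets, fewer cells of a type and less RNA per cell cannot be told apart.

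Etv5, an ETS factor that responds to fibroblast growth factor signals, was lower in all 3 of its probe sets. The brightest gave 74.4 in knockout-labelled and 96.8 in wildtype islets, 1.30-fold lower. The other Etv5 ratios were -0.47 and -0.40 on the log2 scale, and the 3 agreed within an SD of 0.047. The size was modest, inside the central 95% of genes of like signal.

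Hhex had the highest ratio of the 11 progenitor-class factors above the floor on both arrays, which leaves out Sox11, at a log2 ratio of 0.91 with the floor at the 30th percentile. Hhex is needed early for the pancreatic bud and later marks delta cells, and was at 123 in knockout-labelled and 86.0 in wildtype islets, 1.43-fold higher in its single probe set. Sst, the delta cell hormone somatostatin, was at 9770 in knockout-labelled and 9661 in wildtype islets (log2 ratio 0.016). Of 5 measured delta and PP markers other than the factors, 2 were above 0 and 3 below, with a median of -0.15 on the log2 scale. Rbp4, named after its value was seen, was at 2333 in knockout-labelled and 1710 in wildtype islets (log2 ratio 0.45), and Ppy (pancreatic polypeptide) was at 8095 in knockout-labelled and 12702 in wildtype islets, a log2 ratio of -0.65. The measured markers of this list thus lay on both sides of 0, and their part in the Hhex ratio was not tested.

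Of the remaining progenitor-class factors, Prox1, Meis1, Meis2 and Runx1t1 lay within 1.5-fold in their brightest probe sets and Bcl11a had only a bound. Prox1, which is on in endocrine precursors and goes down as beta cells mature, was at 56.0 in knockout-labelled and 48.3 in wildtype islets (log2 ratio 0.21), whereas its other 2 probe sets were at -0.038 and -0.19. Meis1, a TALE homeodomain factor, was at 33.0 in knockout-labelled and 43.8 in wildtype islets (log2 ratio -0.41), with 0.027 in another probe set. Meis2, its close relative, was at 421 in knockout-labelled and 410.4 in wildtype islets, with 4 probe sets from -0.17 to 0.35. None of these 3 kept a single direction over its probe sets. Runx1t1, a corepressor of the ETO family that marks endocrine precursors, was at 77.4 in knockout-labelled and 74.3 in wildtype islets, with measured probe sets from -0.30 to 0.40. Bcl11a, a zinc finger repressor best known from blood and neural cells, was above the floor on the wildtype array only, at 10 in knockout-labelled and 25.6 in wildtype islets, at least 1.18-fold lower, and its log2 ratio was -1.36 with the floor at the 30th percentile.

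By structural family the medians lay between -0.38, the value of Etv5 alone, and 0.13, the bound of Sox11, on the log2 scale. Over 10 measured homeodomain members the median was -0.023 on the log2 scale, with 5 genes above 0 and 5 below. Zinc finger members had a median of -0.15 over 7, of which Bcl11a is a bound. Helix-loop-helix members had one of -0.25 over 4 and forkhead members one of -0.027 over 3. HMG box members had a median of 0.13 over 3, of which Sox11 and Tcf7l2 are bounds, and nuclear receptors one of 0.031 over 2, while the ETS, RFX and ETO families each had 1 measured gene, at -0.38 for Etv5, -0.20 for Rfx3 and 0.059 for Runx1t1. In the helix-loop-helix family Neurod1 was above 0, and Neurog3, close to the floor, Hes1 and Hes6 were below it.

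Other islet transcription factors and cofactors, listed apart from the members, gave no ratio or bound of 2-fold. Of 27 measured genes, 25 were above the floor on both arrays and lay within 2-fold, and the other 2 had bounds under it, with 15 above 0, 12 below and a median log2 ratio of 0.037. Their highest and lowest, named after their values were seen, were Gata6, a pancreas specification factor, at 120.3 in knockout-labelled and 63.3 in wildtype islets (log2 ratio 0.93), and the LIM cofactor gene Ldb2, at 18.7 in knockout-labelled and 40.3 in wildtype islets, at least 1.86-fold lower. Notch pathway genes had a median of -0.049 over 16 measured genes, 7 above 0 and 9 below. In that list 1 gene passed 2-fold, Dlk1, an imprinted ligand-like relative of the Delta proteins found in beta cells, at 71.3 in knockout-labelled and 32.6 in wildtype islets (log2 ratio 1.13).

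Genes that the beta cell factors are known to activate had a median of -0.048 on the log2 scale over the 21 measured besides Neurod1, 10 above 0 and 11 below, none at 2-fold. Slc2a2, the glucose transporter gene activated by PDX1, was at 396 in knockout-labelled and 276 in wildtype islets (log2 ratio 0.52). Pcsk1, a prohormone convertase gene, was at 2563 in knockout-labelled and 1505 in wildtype islets, a log2 ratio of 0.77. Ins2 had a log2 ratio of -0.24 and Iapp (amylin), in its brightest probe set, one of -0.11. Another of the 4 Iapp probe sets, at 1644 in knockout-labelled and 909 in wildtype islets, had a log2 ratio of 0.85. The remaining Iapp ratios were -0.11 and -0.17, so Iapp had no single direction. The targets thus lay on both sides of 0, as the factors did.

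**Figure D5:**
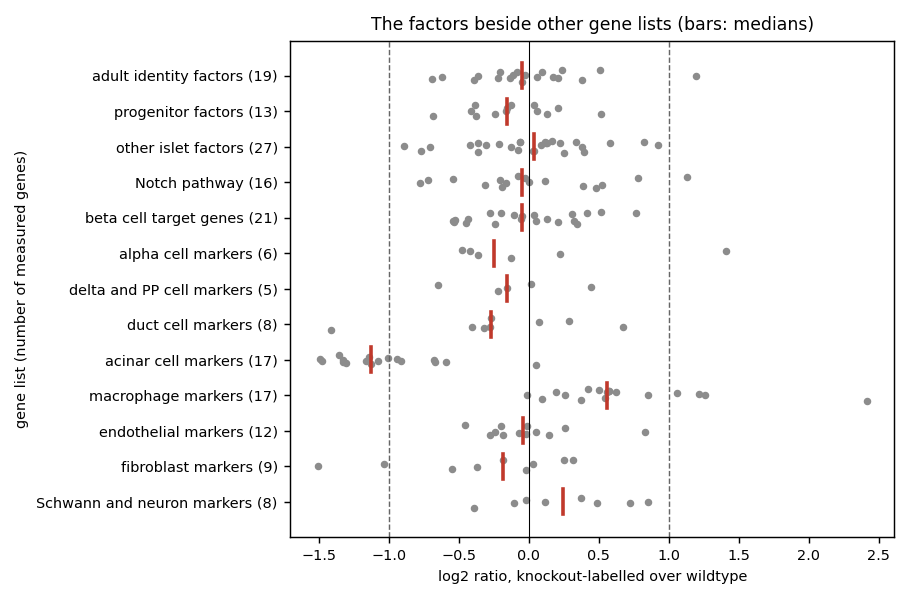
Log2 ratios (x axis) of the measured genes of each list (y axis, number of genes in brackets, factors left out of the lists below them), with red bars at the medians and dashed lines at 2-fold. The factors, other islet factors, Notch genes and beta cell target genes have medians between -0.15 and 0.037, whereas acinar cell markers centre at -1.12 and macrophage markers at 0.56. The other marker lists have medians from -0.27 for duct cells to 0.24 for Schwann cells and neurons. Alpha cell markers centre at -0.24, with 2 genes above 0 and 4 below.

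The median log2 ratios of acinar and of macrophage markers, other cells of an islet preparation, lay farther from 0 than the median of either class of factors. Acinar cell markers were below 0 in 16 of 17 measured genes with a median log2 ratio of -1.12, and their summed signal over 20 genes was 28048 in knockout-labelled and 54580 in wildtype islets. The acinar factors Ptf1a, Rbpjl and Nr5a2 were under the floor on both arrays. Bhlha15 of the same list was at 741 in knockout-labelled and 713.5 in wildtype islets (log2 ratio 0.055), the 1 measured gene above 0. Macrophage markers were above 0 in 16 of 17 measured genes with a median of 0.56 and a summed signal over 20 genes of 3112 in knockout-labelled and 2102 in wildtype islets. In the acinar and macrophage sums the brightest genes weigh most. Aif1, Itgam and Itgax of that list were under the floor on both arrays. The part of acinar cells and macrophages in the ratios of the factors was not tested.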

How the data were processed

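Gene expression was measured on Affymetrix arrays, 1 for knockout-labelled and 1 for wildtype islets, per the labels. The deposited signals are intensities on a linear scale, 1 per probe set, and MAS5, the Affymetrix summary of a probe set's probes into 1 signal, is named in the submitters' processing notes; the sources used here give no version, scaling target or detection calls. The signals were used as deposited. Of 45037 probe sets, the platform annotation, which can be old, paired 34945 with 1 gene, 932 with several and 9160 with none.

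Each gene was represented by its brightest 1-gene probe set by mean log2 signal of both arrays. Signals under the 50th percentile of an array were set to it before log2 ratios were formed, and genes under it on both arrays got no ratio, which left 11802 of 18193 genes. With 1 array per group no test was possible, so a 2-fold limit was read beside the share of all genes past it. The number of arrays limits the precision. The calculation was tested on simulated data, in Python 3.11.15 with numpy 2.4.6, pandas 2.3.3 and statsmodels 0.14.6.

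The members, their division into adult identity and progenitor factors, and the other lists were chosen with earlier results of these data known. By rule, every member found is named, with genes past 2-fold of the other islet factor, Notch and target lists and preset hormone and beta cell genes. Named outside that rule, after their values were seen, were Gata6, Ldb2, Rbp4, Bhlha15, Krt18, Car2, Cldn7 and the markers listed under the floor. Alternatives were floors at the 30th and 70th percentile, a pseudocount of 16 without a floor, division by the array median, quantile normalization, loess (span 0.3), averaging a gene's probe sets, narrower groups, and limits of 1.5-fold and 3-fold.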

Additional observations from a re-analysis of the deposited data

How the results depend on the processing

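The median log2 ratio of adult identity factors stayed between -0.063 and -0.035 over the 8 alternatives, that of progenitor factors between -0.20 and -0.13, and the difference between them between 0.065 and 0.15. The 2-fold higher factors numbered 0 with the floor at the 70th percentile, a pseudocount of 16 or the mean over all probe sets. At a limit of 3-fold the number was 0 too. Myt1 had log2 values of 0.15, 0.90 and 0.74 in the first 3 of these. The 0.15 is a lower bound, since the wildtype signal of 32.5 was under that floor. The 0.74 averages 1.19 with a bound of 0.28. With the floor at the 30th percentile 1 factor, Bcl11a, was 2-fold lower (log2 ratio -1.36), and at 1.5-fold there were 3 lower factors. All genes past the limit numbered 695 higher and 643 lower with the 30th percentile, 96 and 64 with the 70th, 815 and 733 at 1.5-fold, and 51 and 17 at 3-fold. The totals differ too, with 15370 genes and 33 factors measured at the 30th percentile, and 8175 genes and 23 factors at the 70th. With the pseudocount 18193 genes and 35 factors were counted. Of the 32 measured factors, 30 kept their sign under each alternative run; Insm1 (-0.23) and Prox1 (-0.0037) did not with the mean over all probe sets, where Pdx1 was at -0.011. All 32 kept it under the 3 other scalings, which moved the median of all genes by less than 0.01 on the log2 scale. Such scalings, a floor or a pseudocount can hardly change a sign that is not close to 0. Kept signs therefore say little about the direction of a factor, and the share of all genes that kept theirs was not counted. Weak signals limit Neurog3, Tcf7l2, Sox11, Bcl11a and Myt1. They also limit Hes1, Meis1, Esrrg, Prox1 and Rfx3, which were under the floor on both arrays at the 70th percentile. No paired analysis was possible because each group has 1 array.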
